A study of Mus musculus with 8 samples.

Results

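A set of 9 genes of B cell commitment and the pre-B cell receptor are described here across sorted mouse bone marrow progenitors: Ebf1, Pax5, Vpreb1, Vpreb3, Igll1, Cd79a, Cd79b, Blnk and Cd72. They were chosen by symbol, as rows of the array table whose annotation gives exactly 1 gene symbol. All 9 were found, each on 1 row, among 19938 genes measured in that way on 21789 rows. RNA was hybridised to 8 Affymetrix Mouse Gene 1.0 ST arrays, which gather probes spread along each gene. The KO LSK and KO GMP groups came from mice with both Cbfb alleles floxed, Vav1-iCre x Cbfb(F/F). The Het LSK and Het GMP groups came from mice with 1 floxed allele, Vav1-iCre x Cbfb(F/+). All mice were 7 weeks old and on a backcrossed C57BL6 background. Both genotypes carried the Cre recombinase, driven by the blood cell gene Vav1, so each difference is that of KO against Het, and no animal without Cre or without a floxed allele was among the samples. The LSK fraction contains blood stem cells and early progenitors of all lineages. GMP cells give rise to granulocytes and macrophages. The design names 2 mice of each genotype and about 200000 sorted cells per population at over 98% purity. Each of the 4 groups had 2 arrays, labelled as biological replicates and not tied there to single mice.

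As background, B cell development from multipotent progenitors runs through a stage at which the transcription factor Ebf1 is switched on, followed by Pax5, which holds the cells in the B lineage. These factors drive the genes of the pre-B cell receptor. In that receptor the surrogate light chain, made of the VpreB and lambda5 proteins, stands in for a light chain, the Cd79a and Cd79b proteins carry the signal across the membrane, and the adaptor Blnk passes it on inside the cell. Cbfb is the partner subunit of the Runx transcription factors, which bind DNA at a short core sequence.

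That core, TGTGGT, was searched on both strands in the 250 bases before each annotated gene start, since Cbfb acts through Runx proteins. It was the only motif searched. RefSeq promoters of assembly GRCm38.p6 covered 8 of the 9 genes in 9 windows, Ebf1 having a pair of starts. The core stood in 3 of the 8 genes, and in 14% of all 32851 windows of that length. The 3 windows that hold it are shown 5′ to 3′ on the gene's strand, with the core (or its reverse complement ACCACA) in capitals. A match describes the sequence and is not a shown binding site.
Ebf1, chr11:44617850-44618099, plus strand: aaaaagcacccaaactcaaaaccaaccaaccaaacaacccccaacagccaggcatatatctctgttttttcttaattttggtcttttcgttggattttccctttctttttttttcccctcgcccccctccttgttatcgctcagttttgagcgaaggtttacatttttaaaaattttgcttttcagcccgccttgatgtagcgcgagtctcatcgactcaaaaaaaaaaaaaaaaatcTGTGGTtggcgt
Vpreb3, chr10:75948050-75948299, plus strand: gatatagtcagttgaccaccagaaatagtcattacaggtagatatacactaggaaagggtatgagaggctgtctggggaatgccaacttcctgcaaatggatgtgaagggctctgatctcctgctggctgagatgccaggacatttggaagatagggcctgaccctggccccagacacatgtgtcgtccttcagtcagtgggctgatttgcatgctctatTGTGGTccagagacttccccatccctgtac
Igll1, chr16:16863986-16864235, minus strand: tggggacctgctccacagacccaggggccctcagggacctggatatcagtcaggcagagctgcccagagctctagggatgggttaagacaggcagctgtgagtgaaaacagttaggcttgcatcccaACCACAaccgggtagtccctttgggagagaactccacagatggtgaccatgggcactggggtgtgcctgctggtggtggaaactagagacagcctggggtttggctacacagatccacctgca
The core began 12 bases before the start in Ebf1, 30 bases before it in Vpreb3 and 123 bases before it, on the other strand, in Igll1.

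All values are log2 expression values, and differences are on the log2 scale. A row was called at a limma p-value, adjusted by Benjamini-Hochberg over all 21789 rows, under 0.05. The 95th percentile of 1035 olfactory receptor rows, genes with no known role in marrow, lay between 3.98 and 4.16 on the 8 arrays and is used as a description of the lower end. The targeted gene Cbfb stood at 6.93 and 6.98 in KO LSK, against 7.56 and 7.55 in Het LSK (difference -0.60, SE 0.16, limma adjusted p = 0.0557). In GMP it stood at 6.48 and 6.96 in KO, against 7.53 and 7.65 in Het (difference -0.86, SE 0.16, limma adjusted p = 0.013). Of the sort markers, Fcgr3 averaged 9.66 ± 0.11 in Het GMP and 5.23 ± 0.61 in Het LSK (SD, n = 2 arrays each). Cd34 was lower in Het GMP (9.63 and 9.89) than in Het LSK (11.05 and 11.04). Kit was at least 9.14 on every array and was also lower in Het GMP (9.14 and 9.26) than in Het LSK (10.08 and 10.30). Fcgr2b stood at 8.14 and 7.89 in KO LSK, above its 7.74 and 7.78 in Het GMP, and Ly6a was not analysed here. With 2 arrays a group, the smallest p of an exact two-sided permutation test is 0.333, so single genes were tested only in the limma fit.

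In LSK cells, levels of all 9 genes were lower in KO than in Het. The fitted falls ran from 0.81 for Cd79b to 3.60 for Vpreb1 on the log2 scale. Ebf1, Cd79a and Blnk were under the olfactory receptor level on both KO LSK arrays. The sizes of their fitted falls are therefore uncertain and not ranked, and bounds against that level are given below. All 9 passed the test, where 4.71% of all tested rows were called lower and 3.02% higher. On each of the 9, both KO LSK arrays lay below both Het LSK arrays, as did 22.7% of all rows. The median difference was -3.18 over the 9 genes and 0.0096 over all tested rows. RNA came from bulk populations, so fewer cells that express a gene and less RNA per cell cannot be told apart.

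Of the transcription factors, Ebf1, which starts the B cell program, stood at 3.75 and 3.14 in KO LSK, against 6.93 and 6.79 in Het LSK. The KO arrays lay under the olfactory receptor level and the Het arrays well above it. Ebf1 fell by 3.42 (SE 0.21, limma adjusted p = 3.42e-05), and since both KO arrays were under the olfactory receptor level, the difference is given as at least 2.71 against that level, or at least 6.55-fold lower. Pax5, which maintains B cell identity, stood at 3.92 and 4.40 in KO LSK, against 5.95 and 5.41 in Het LSK. It fell by 1.52 (SE 0.21, limma adjusted p = 0.00218). Its KO levels lay on either side of the olfactory receptor level.

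Among the surrogate light chain genes, Vpreb1, the gene of a VpreB chain, stood at 6.87 and 5.0 in KO LSK, against 10.01 and 9.06 in Het LSK. The KO arrays differed from each other by 1.87, the widest gap between arrays of a group among the 9 genes in any group. Vpreb1 fell by 3.60 (SE 0.56, limma adjusted p = 0.00437), with a 95% confidence interval from -4.86 to -2.34. Without KO LSK replicate 1 the difference was -4.54 and without replicate 2 it was -2.67, both called. Vpreb1 has a close copy, Vpreb2, whose row (named after its values were seen) stood at 4.79 and 4.79 in KO LSK, against 6.13 and 5.55 in Het LSK. How far probes of either gene read RNA of the other was not tested.

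Igll1, the gene of lambda5, stood at 5.51 and 4.65 in KO LSK, against 8.55 and 7.98 in Het LSK, and fell by 3.18 (SE 0.29, limma adjusted p = 0.000205). Igll1 and Vpreb1 are direct neighbours, with 0 annotated genes between them in the RefSeq assembly. Vpreb3, a VpreB relative expressed in B cell precursors, stood at 4.81 and 4.78 in KO LSK, against 8.67 and 7.85 in Het LSK. Its KO arrays differed by 0.02, and it fell by 3.47 (SE 0.23, limma adjusted p = 4.92e-05).

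The signalling chains of the receptor differed from each other. Cd79a stood at 3.56 and 3.47 in KO LSK, under the olfactory receptor level, against 6.82 and 6.30 in Het LSK. It fell by 3.05 (SE 0.17, limma adjusted p = 2.55e-05), at least 5.33-fold lower against that level. Cd79b, its partner in the receptor, stood at 7.66 and 7.69 in KO LSK, against 8.65 and 8.32 in Het LSK. It fell by 0.81 (SE 0.14, limma adjusted p = 0.00724) and stayed above the olfactory receptor level by over 3 log2 units on all 8 arrays. When Het LSK replicate 1 was left out, Cd79b no longer passed (difference -0.64, limma adjusted p = 0.0516).

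Blnk, the adaptor that links the receptor to downstream enzymes, stood at 3.49 and 3.22 in KO LSK, against 7.18 and 6.23 in Het LSK, and fell by 3.35 (SE 0.30, limma adjusted p = 0.000193). Its KO arrays were under the olfactory receptor level too, which gives at least 5.89-fold lower. Cd72, an inhibitory coreceptor of B cells, stood at 4.24 and 4.47 in KO LSK, against 6.97 and 7.12 in Het LSK, and fell by 2.69 (SE 0.15, limma adjusted p = 2.87e-05). Apart from Cd79b, each of the genes kept its call in LSK with each array left out in turn.

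**Figure D1:**
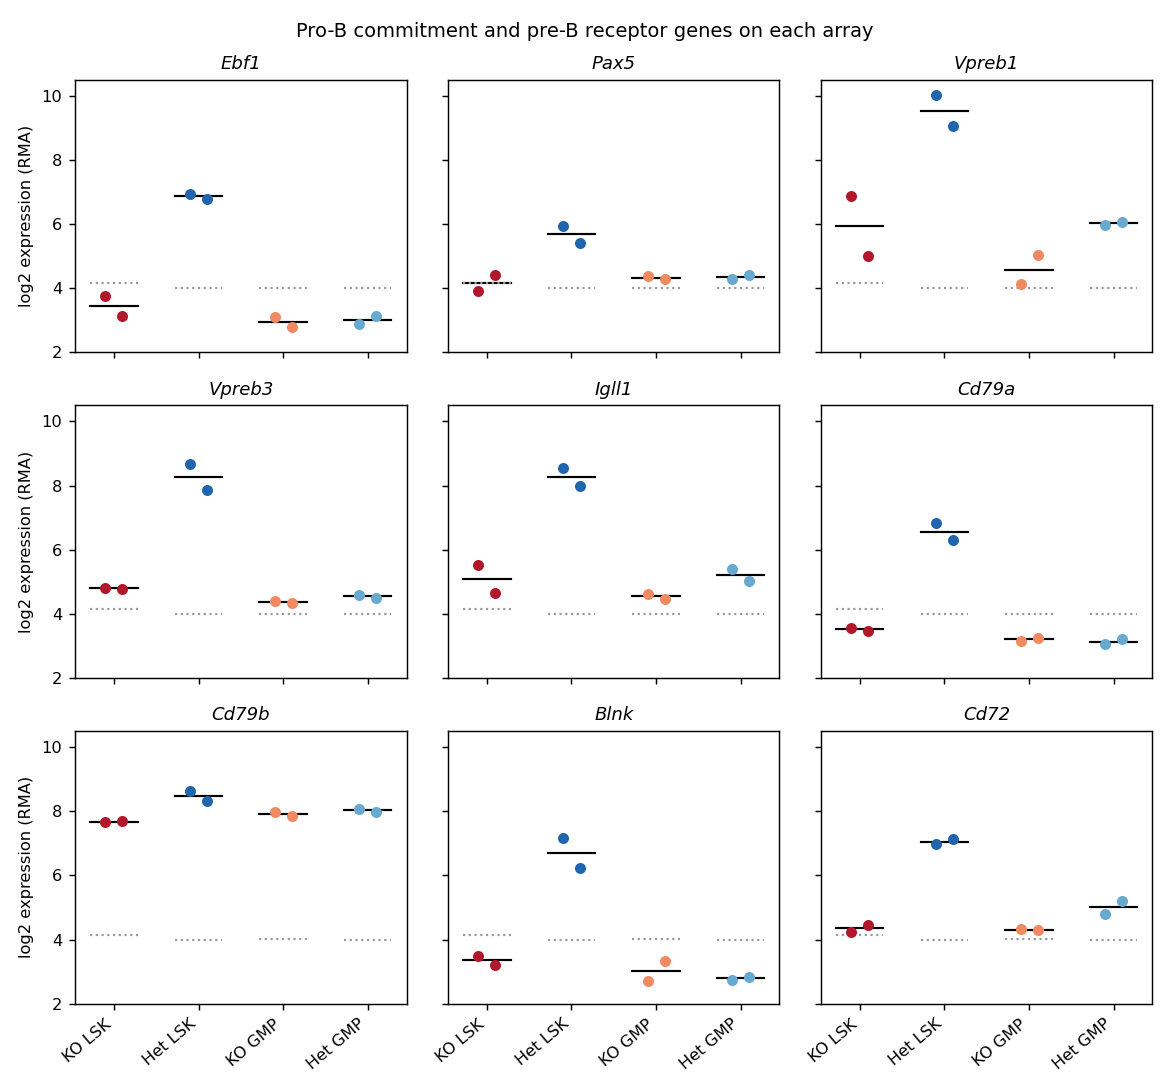
Log2 expression of the 9 genes on each array (points), by group, with the group mean as a black line and the mean over the group's arrays of the 95th percentile of olfactory receptor rows as a dotted grey line. Het LSK is the highest group in every panel, and Ebf1, Cd79a and Blnk lie under the dotted line in the other 3 groups.

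In GMP cells 3 of the 9 genes were under the olfactory receptor level in both genotypes. Of the 9, Cd72 passed the test as lower in KO, where 2.57% of all tested rows were called lower and 3.45% higher. Both KO GMP arrays lay below both Het GMP arrays for 5 of the 9 genes, and for 27.9% of all rows. The median difference over the 9 was -0.11, and -0.017 over all tested rows.

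Cd72 stood at 4.34 and 4.28 in KO GMP, against 4.81 and 5.19 in Het GMP, and fell by 0.69 (SE 0.15, limma adjusted p = 0.0331). This call did not hold without either GMP array of KO (replicate 1, adjusted p = 0.135; replicate 2, 0.188), without Het GMP replicate 2 (0.214), without either Het LSK array (0.0518 each), or when the rows with no or several symbols were tested too (0.114). Vpreb1 stood at 4.12 and 5.03 in KO GMP, against 5.97 and 6.07 in Het GMP. Its difference of -1.45 (SE 0.56, limma adjusted p = 0.214) missed the threshold, with a 95% confidence interval from -2.71 to -0.18. It was called without either KO LSK array (adjusted p = 0.0446 each) and when the GMP arrays were fitted alone (0.0271). Igll1 stood at 4.63 and 4.48 in KO GMP, against 5.40 and 5.03 in Het GMP, a difference of -0.66 (SE 0.29, limma adjusted p = 0.281). The groups did not overlap on either surrogate light chain gene.

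Ebf1, Cd79a and Blnk lay under the olfactory receptor level on all 4 GMP arrays. Ebf1 stood at 3.10 and 2.78 in KO GMP, against 2.89 and 3.14 in Het GMP, and the 95% confidence interval of its difference ran from -0.55 to 0.39. A gene at that level in Het GMP has little room to be seen lower in KO. Cd79a (3.15 and 3.26 in KO GMP, against 3.07 and 3.21 in Het GMP) and Blnk (2.71 and 3.33 in KO GMP, against 2.75 and 2.84 in Het GMP) overlapped between genotypes. Pax5 stood at 4.38 and 4.29 in KO GMP, against 4.28 and 4.40 in Het GMP, and Vpreb3 at 4.41 and 4.33 in KO GMP, against 4.60 and 4.49 in Het GMP.

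Cd79b was the exception in level. It stood at 7.97 and 7.86 in KO GMP, against 8.07 and 7.98 in Het GMP. Far above the lower end in both genotypes, it differed by -0.11 (SE 0.14, limma adjusted p = 0.77), with a 95% confidence interval from -0.42 to 0.20.

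**Figure D2:**
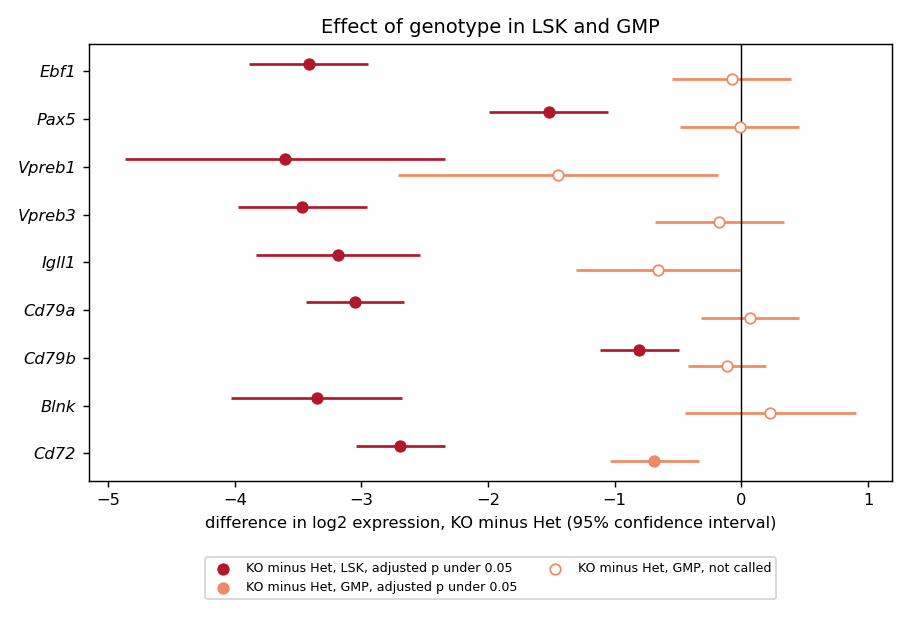
Difference in log2 expression, KO minus Het, for each gene in LSK (dark) and GMP (light), with limma's 95% confidence interval; filled points passed an adjusted p under 0.05. All 9 genes passed in LSK, from -3.60 to -0.81, and Cd72 passed in GMP at -0.69.

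Whether the effect of genotype differed between the cell types was tested with an interaction term, the KO effect in GMP minus that in LSK. It was called for 7 of the 9 genes, all with the larger fall in LSK; 1.69% of all tested rows were called in that direction. It was 3.29 for Vpreb3 (SE 0.32, limma adjusted p = 0.00225), 2.53 for Igll1, 2.0 for Cd72 and 1.51 for Pax5. In Het GMP, Vpreb3 (4.60 and 4.49) and Pax5 (4.28 and 4.40) stood close above the olfactory receptor level. Both had little room to be seen lower in KO GMP. For Ebf1 (3.34, SE 0.29, limma adjusted p = 0.00155), Cd79a (3.11) and Blnk (3.58), the GMP arrays and the KO LSK arrays all lay under the olfactory receptor level, so the sizes are not ranked and a genotype effect in GMP could hardly be seen. Vpreb1 (2.16, SE 0.79, limma adjusted p = 0.263) and Cd79b (0.69, SE 0.19, limma adjusted p = 0.128) missed the threshold. With 1 array left out at a time, Pax5 passed without KO LSK replicate 2 or Het LSK replicate 2 and did not pass without any of the other 6 (adjusted p up to 0.144). Igll1 did not pass without Het LSK replicate 1 (0.0519), Het GMP replicate 2 (0.0727) or KO GMP replicate 1 (0.0574). Vpreb1 passed without KO LSK replicate 1 (3.09, adjusted p = 0.0251).

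Between cell types, 8 of the 9 genes were called lower in Het GMP than in Het LSK, where 9.6% of all tested rows were called lower. Both Het GMP arrays lay below both Het LSK arrays for all 9 genes, and for 28.2% of all rows. The median difference was -3.42 over the 9 genes and 0.0066 over all tested rows. Vpreb3 fell by 3.72, Vpreb1 fell by 3.51, Igll1 fell by 3.05, Cd72 fell by 2.05 and Pax5 fell by 1.34. Ebf1, Cd79a and Blnk were under the olfactory receptor level on both Het GMP arrays, and against that level they were at least 7.30-fold, 5.95-fold and 6.57-fold lower in that order. Cd79b differed by -0.45 (SE 0.14, limma adjusted p = 0.0523), and was called without Het LSK replicate 2 (-0.62, adjusted p = 0.035), after either filter on dim rows (0.0249 and 0.0334), with an intensity trend (0.0267) and with a random replicate block (0.0339). This comparison shares its Het LSK arrays with that of KO LSK against Het LSK, so the likeness of the differences is not independent.

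In the KO, 0 of the 9 genes were called between GMP and LSK by limma, where 2.39% of all tested rows were called lower and 3.66% higher; 2 genes had an unadjusted p under 0.05, as did 19.2% of all tested rows. Both KO GMP arrays lay below both KO LSK arrays for 4 genes, and for 26% of all rows. The median difference was -0.33 over the 9 genes and -0.021 over all tested rows. Without KO LSK replicate 2, Ebf1 (-0.81, limma adjusted p = 0.0377) and Vpreb1 (-2.29, limma adjusted p = 0.0176) were called lower in KO GMP than in KO LSK. With KO LSK replicate 2 and without replicate 1 their differences were -0.20 and -0.42. Ebf1 lay under the olfactory receptor level on every KO array, so its differences here are between values at the lower end. Vpreb1 lay above that level on every KO array. The comparison of KO GMP with KO LSK therefore depended on which KO LSK array was kept.

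Het LSK had the highest mean of the 4 groups for all 9 genes. Among the other 3 groups, Cd72 was the single gene with a called difference, and the other 8 had none between KO and Het GMP or between KO GMP and KO LSK. For Cd72, KO LSK and KO GMP (4.36 ± 0.16 and 4.31 ± 0.04, SD, n = 2 arrays each) were both lower than Het GMP (5.0 ± 0.27) in their means. KO LSK was not tested against Het GMP.

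The 9 genes varied together across arrays. With each gene's mean over the 8 arrays subtracted, their average was -0.44 and -0.77 in KO LSK, against 2.44 and 1.92 in Het LSK. It was -1.0 and -0.90 in KO GMP, against -0.66 and -0.60 in Het GMP. Correlation of single genes with this average, which holds the gene itself, was 0.861 for Cd79b and between 0.941 and 0.995 for the others, over 8 arrays that fall into 4 groups. Het LSK replicate 1 was above replicate 2 for 8 of the 9 genes, Cd72 being the exception, and for 51.1% of all tested rows. Replicate 1 was the higher for 6 genes in KO GMP and for 3 in Het GMP. In KO LSK it was the higher for 6, by 1.87 in Vpreb1, 0.86 in Igll1 and 0.61 in Ebf1. On the same array Dntt, an early lymphoid gene that adds nucleotides at recombined joints, stood at 6.33, against 4.56 on KO LSK replicate 2. Rag1, the gene of a recombinase subunit, stood at 4.10 and 3.16 on those arrays.

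Genes outside the set with the most similar pattern over the 8 arrays were sought among 2152 genes whose group means spanned at least 1 log2 unit. By Pearson's r with the average of the 9 genes they were Cd96 (0.998), Mcoln2 (0.993), Myl10 (0.993), Ccl5 (0.990) and Il18 (0.988). Cd96, a receptor of T and NK cells, averaged 3.78 in KO LSK and 6.61 in Het LSK, and 3.40 in KO GMP and 3.76 in Het GMP. All 5 had their highest group mean in Het LSK, as the plot of similar genes shows.

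**Figure D3:**
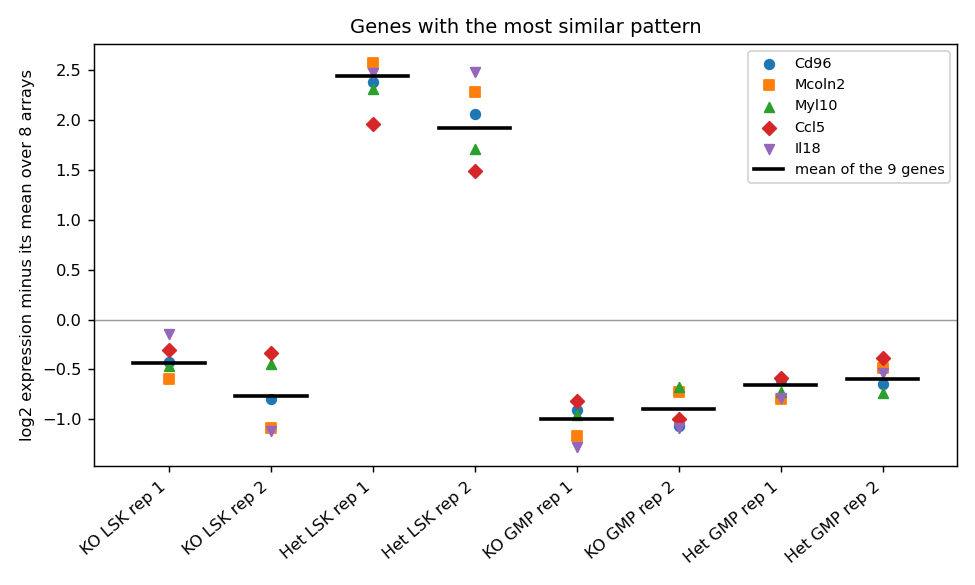
Log2 expression of the 5 genes with the most similar pattern, each minus its mean over 8 arrays (coloured symbols), and the average of the 9 genes on the same scale (black bars), by array. The black bars stand at 2.44 and 1.92 on the Het LSK arrays and below 0 on the other 6.

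Other genes of the B lineage were described in lists chosen with earlier results of these data known, and the lists were not tested against each other. Of 20 transcription factors of B cell specification, 13 were called lower and 0 higher in KO LSK. Over all tested rows in LSK, 4.71% were called lower and 3.02% higher. The median was -0.76 for the 20 factors, beside 0.0096 over all tested rows. Id2, an inhibitor of E proteins that is not itself a B cell factor, fell by 2.16 (SE 0.32). Irf8 fell by 1.45 (SE 0.25) and Pou2af1, a coactivator of octamer-binding factors, fell by 1.31 (SE 0.17). The 13 also held Id3 (-1.05), a relative of Id2, and Irf4, which lay under the olfactory receptor level on every array. The count was 7 without Het LSK replicate 1 and 8 without replicate 2, and Irf8 was not called when Het LSK replicate 1 was left out (adjusted p = 0.0609). Of 9 recombination and early lymphoid genes, 6 were called lower and 0 higher in KO LSK (median -1.84). Dntt fell by 5.19, Flt3, a cytokine receptor gene of early lymphoid progenitors, fell by 3.41 and Rag1 fell by 2.72. Rag1 was under the olfactory receptor level on both KO LSK arrays, so the size of its fall is uncertain. The count stayed at 6 with each array left out.

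Of 15 B cell receptor signalling genes, 2 were called lower and 1 higher in KO LSK (median 0.011). The shares of all tested rows were 4.71% lower and 3.02% higher. The kinase gene Btk rose by 0.88 (SE 0.16, limma adjusted p = 0.00903). The scaffold gene Bank1 fell by 0.84, a size that is uncertain, since both KO LSK arrays were under the olfactory receptor level. The kinase gene Prkcb fell by 0.59. None of the 3 passed when Het LSK replicate 2 was left out (adjusted p = 0.0669 for Btk, 0.0729 for Bank1 and 0.0977 for Prkcb). Blnk and Cd79a had fitted falls of over 3 log2 units in the same comparison, with both KO LSK arrays under the olfactory receptor level. Of 14 later B cell surface genes, 4 were called lower and 0 higher (median -0.065), with 5 to 8 of the 14 above the olfactory receptor level on any array, and 2 were called without Het LSK replicate 1. Cd24a fell by 1.78, Bst1 fell by 0.99 and Tnfrsf13c, the gene of the BAFF receptor, fell by 0.93. The remaining called gene, Cxcr5 (-0.56), lay under the olfactory receptor level on every array. Bst1 was under the olfactory receptor level on both KO LSK arrays and about at that level on Het LSK replicate 2 (3.99). The size of its fall is therefore uncertain. Bst1 was not called when Het LSK replicate 1 was left out (adjusted p = 0.0567).

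Of the defining markers of mature B cells, 4 were measured, and these were low on every array. Ms4a1, Cr2, Fcer2a and Cd22 lay under the olfactory receptor level on all 8 arrays. Ms4a1, the gene of CD20, stood at 2.40 and 2.91 in KO LSK, against 2.66 and 2.65 in Het LSK. Ighm, the mu heavy chain gene, had 3 rows that disagreed. On the row with the highest mean it stood at 7.34 and 4.39 in KO LSK, against 4.91 and 4.87 in Het LSK, and on the other rows KO LSK was lower than Het LSK (3.62 and 3.58, against 4.28 and 3.88; 2.58 and 2.60, against 3.62 and 3.58). All 9 genes were called lower in LSK without KO LSK replicate 1, the array with the high Ighm value.

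Markers of other cells moved with the 9 genes in part. Their counts stand beside 4.71% of all tested rows called lower and 3.02% called higher in KO LSK. Of 5 plasmacytoid dendritic cell markers, 2 were called lower in KO LSK: Ccr9 fell by 1.66 (SE 0.21, limma adjusted p = 0.0013) and Cox6a2 fell by 1.65 (SE 0.31, limma adjusted p = 0.0124). Siglech stood at 4.03 and 3.65 in KO LSK, against 4.17 and 4.39 in Het LSK. Their summed level on the linear scale was 441 and 504 in KO LSK, against 829 and 591 in Het LSK. Of 4 plasma cell markers, Sdc1 (-0.97) and Jchain (-0.99) were called lower. Jchain was above the olfactory receptor level on only 1 of the 8 arrays. Summed levels of the 4 markers were 201 and 217 in KO LSK, against 221 and 239 in Het LSK. Of 7 T cell markers 0 were called, with summed levels of 110 and 100 in KO LSK, against 124 and 126 in Het LSK. Of 3 erythroid markers 2 were called lower, with summed levels of 85 and 83 in KO LSK, against 367 and 540 in Het LSK. Of 6 mature granulocyte markers 1 was called higher, with summed levels of 1867 and 1208 in KO LSK, against 1041 and 3663 in Het LSK. Of the 4 sort markers measured, Fcgr3 (1.07) and Fcgr2b (2.44) were called higher in KO LSK. The part of these cells in the falls was not tested.

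In GMP the companion genes moved in both directions. Of the 20 transcription factors, 2 were called higher and 1 lower in KO GMP. Over all tested rows in GMP, 3.45% were called higher and 2.57% lower. Foxo1, which supports early B cell gene expression, rose by 1.77 (SE 0.15) and Mef2c by 0.73 (SE 0.15), while Irf8 fell by 2.74 (SE 0.25). Mef2c did not pass without any of the 4 GMP arrays (adjusted p between 0.0719 and 0.149). Il7r, the receptor gene for the cytokine that feeds pro-B cells, stood at 5.58 and 5.30 in KO GMP, against 3.40 and 3.42 in Het GMP. It rose by 2.03 (SE 0.27, limma adjusted p = 0.00206). Both Het GMP arrays were under the olfactory receptor level, so the size of this rise is uncertain. Il7r was the single gene called in GMP of the 9 recombination and early lymphoid genes. In LSK the same gene stood at 5.93 and 4.98 in KO, against 7.42 and 7.16 in Het, and the interaction was called (3.86, SE 0.38, limma adjusted p = 0.00225). Ebf1 lay under the olfactory receptor level in the same KO GMP samples.

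Of the B cell receptor signalling genes, 3 of 15 were called higher and 0 lower in KO GMP. The shares of all tested rows were 3.45% higher and 2.57% lower. Among the 3 genes were the kinase gene Fyn (1.89, SE 0.17) and the adaptor gene Dapp1 (1.23, SE 0.16). The third was Btk (0.80, SE 0.16), which did not pass without any of the 4 GMP arrays (adjusted p between 0.0797 and 0.144). Markers of other cells differed in GMP too: of 6 mature granulocyte markers, Retnlg was called higher (2.46) and Cd177 lower (-1.15), with a median of -1.13 and summed levels of 3982 and 2856 in KO GMP, against 5008 and 9025 in Het GMP. Of 3 erythroid markers, Epor was called higher (0.92) and Car1 lower (-2.75). Their part in the GMP differences was not tested. No later B cell surface gene of 14 was called in GMP by limma (0 also in each alternative run).

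**Figure D4:**
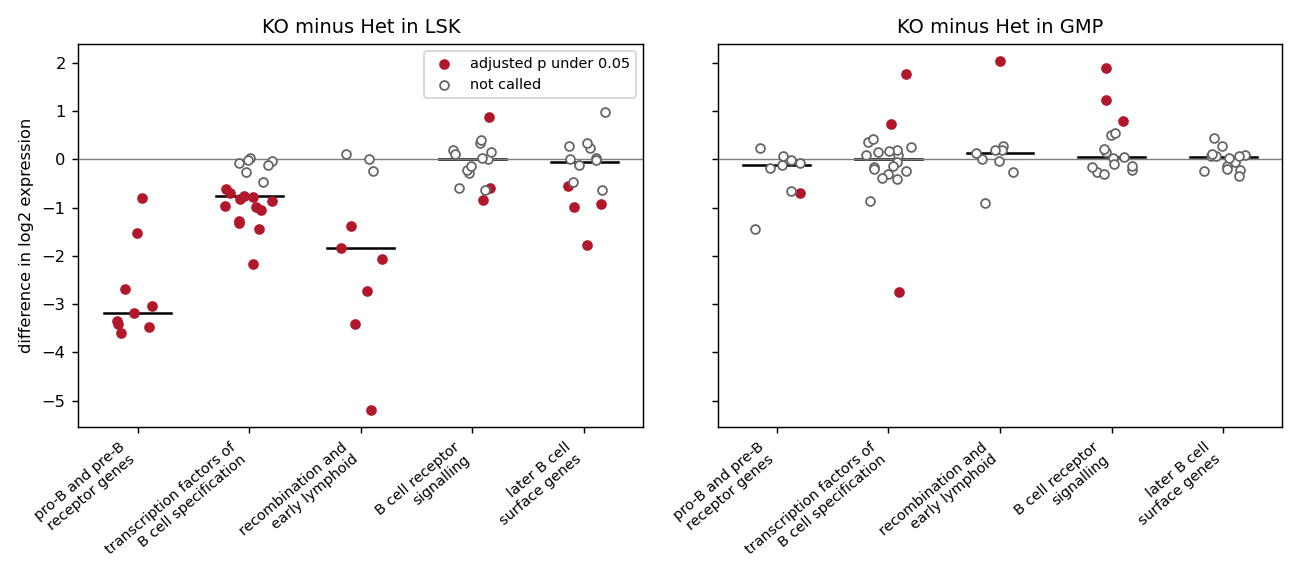
Difference in log2 expression, KO minus Het, in LSK (left) and GMP (right) for the 9 genes and 4 lists of B lineage genes; points are genes, filled where the adjusted p was under 0.05, and black lines are medians. In LSK the medians are -3.18 for the 9 genes, -0.76 for transcription factors, -1.84 for recombination and early lymphoid genes, 0.011 for signalling genes and -0.065 for later surface genes.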

How the data were processed

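The authors deposited log2 expression values made with RMA, per the submitters' processing notes, for 8 arrays. RMA subtracts background, quantile-normalises the arrays and fits 1 value per transcript cluster. The sources used here give neither its version nor the genome build, so promoter coordinates are RefSeq's. RMA gives no detection call and compresses differences of dim genes. RNA was extracted with a column kit and amplified before labelling, per the labels' protocols.

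Of 35556 rows, 21789 had 1 gene symbol, 1621 several and 12146 none. From the deposited log2 values, limma (version 3.58.1, R 4.3.3) fitted 1 mean for each of the 4 groups to the rows with 1 symbol (4 residual and 4.83 prior degrees of freedom; two-sided; no filter on low values), with 5 contrasts. For genes with several rows, the row with the highest mean stood for the gene. The script was tested on simulated data. Named list genes were the called members with the 3 largest differences, and the 5 similar genes were ranked by Pearson's r. P-values reflect only how these arrays vary, which may be technical in part. The members and lists were chosen with earlier results of these data known. Alternatives were 9 other settings and each array left out in turn.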

Additional observations from a re-analysis of the deposited data

Results flagged for a closer look

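For 7 genes the effect of genotype in GMP differed from that in LSK by the interaction test. The KO effect in GMP minus that in LSK was 3.34 for Ebf1, 1.51 for Pax5, 3.29 for Vpreb3, 2.53 for Igll1, 3.11 for Cd79a, 3.58 for Blnk and 2.0 for Cd72. Ebf1, Cd79a and Blnk lay under the olfactory receptor level on all 4 GMP arrays, so a fall in KO GMP could hardly be seen there. Pax5 and Vpreb3 lay close above that level in Het GMP and had little room to be seen lower.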

How the results depend on the processing

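For the differences of the 9 genes over all settings, 697 values kept direction and side of the threshold. A call was lost in 20 and gained in 11, and 8 changed sign, each of these uncalled in both fits. Part of the 697 was fixed in advance. Each gene had 1 row, so choosing rows by variance repeated the main fit. Leaving out an array of a group not compared could change the p-value but not the difference. With each array left out, KO against Het in GMP ran from -0.24 to 0.084 for Ebf1 (above 0 without Het GMP replicate 2, at 0.050, or KO GMP replicate 2), from -0.072 to 0.046 for Pax5 (above 0 without the same arrays, at 0.032 for KO GMP replicate 2), from -0.0085 to 0.14 for Cd79a (below 0 without Het GMP replicate 1) and from -0.081 to 0.54 for Blnk (below 0 without KO GMP replicate 2). GMP against LSK in KO ran from -0.072 to 0.41 for Pax5 (below 0 without KO LSK replicate 1) and from -0.15 to 0.067 for Cd72 (above 0 without KO LSK replicate 2). With rows of a mean above the median, 5 of the 9 genes remained in the test (Vpreb1, Vpreb3, Igll1, Cd79b and Cd72), so fewer could be called: 5 in KO against Het in LSK, 5 in GMP against LSK in Het and 3 in the interaction. In KO against Het in GMP, where 1 gene was called, 0 were with rows of no or several symbols added and 2 when the GMP arrays were fitted alone; the cause was not tested. With each array left out, counts ran from 8 to 9 (KO against Het in LSK), 0 to 2 (in GMP), 5 to 7 (interaction), 8 to 9 (GMP against LSK in Het) and 0 to 2 (in KO). The replicate numbers do not pair the samples by any label. Deviations of arrays with the same number correlated between -0.143 and 0.179, at 0.179 for KO LSK with KO GMP and 0.133 for Het LSK with Het GMP. With a replicate block the counts were 9, 1, 6, 8 and 0 in the same order. Pax5 then lost its interaction call (adjusted p = 0.0531), as it did after each array's median was subtracted (1.37, 0.0606). With rows of no or several symbols added, both Pax5 (limma adjusted p = 0.153) and Igll1 (0.0978) lost their interaction calls. Precision is limited by 2 arrays a group.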
